A study of Mus musculus with 52 samples.

Results

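Tributyltin (TBT) was compared with mono-2-ethylhexyl phthalate (MEHP) after 4 days of exposure in bone marrow stromal cultures that were being driven towards bone. The arrays were chosen by their titles: 4 carried TBT at day 4 and 4 carried MEHP at day 4, which makes 8 of the 52 arrays in the series. All cultures came from female C57BL/6J mice aged 8 weeks, and the marrow cells of 2 to 4 animals were pooled to make 1 experiment. From day 7 after plating the cells were kept in osteoinductive medium with ascorbate, β-glycerol phosphate, insulin and 10 nM dexamethasone, which every group used here shared. TBT was given at 80 nM; the dose of MEHP is not given in the sources used here, so compound and dose cannot be told apart. The vehicle cultures, shown as background, received DMSO at 0.1%. The day 1 cultures had the same exposures, taken at the earlier time. Each group held 1 array from each of 4 pools, numbered 12, 15, 19 and 20 in the titles, and array values below are listed in that order. A pool is a mixture of animals and the cultures are primary marrow, so they hold more than stromal cells.

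TBT is an organotin biocide that binds the nuclear receptors RXR and PPARγ, and MEHP is the metabolite of a common plasticiser and activates PPARs. PPARγ pairs with RXR on DNA and drives fat cell formation at the cost of bone formation in marrow stroma. RXR also pairs with LXR, the receptor for oxidised cholesterol, whose targets export cholesterol from the cell and shape lipoproteins.

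Expression was read on Affymetrix Mouse Gene 2.0 ST arrays, and values are log2 expression as deposited. The medians of the 8 arrays ran from 4.01 to 4.09, and precision is limited by how many arrays there were. All 8 stromal markers measured (among them Pdgfra, Pdgfrb, Vcam1 and Cxcl12) lay above the median of the whole table, 4.05, on every one of the 8 arrays, and their median level was 9.91 in TBT and 9.55 in MEHP. The labelled stromal cells were not alone. The 8 macrophage markers had a median of 10.98 in TBT and 10.78 in MEHP, and the 5 adipocyte markers 11.14 in TBT and 11.54 in MEHP. The 5 neutrophil markers had a median of 6.83 in TBT and 8.68 in MEHP. The erythroid marker Klf1 lay below 4.05 on all 8 arrays, and so did the osteoblast marker Bglap on 4 of them.

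At day 4, 294 of the 14911 genes tested differed between TBT and MEHP (1.97%; limma, adjusted p under 0.05), 168 of them higher in TBT (1.13%) and 126 lower (0.845%). The words rose and fell are kept for genes that passed this test, and give the direction of TBT relative to MEHP unless vehicle is named. The median difference over all genes tested was 0.00 on the log2 scale, with quartiles at -0.11 and 0.12. The median size of the called differences was 0.65, and 58 genes reached a difference of 1 or more, 21 of them higher and 37 lower. The falls were fewer here, but not in every setting: leaving out pool 15 gave 72 higher and 75 lower, leaving out the MEHP array of pool 12 gave 153 and 221, that of pool 15 gave 186 and 196, and leaving out the TBT array of pool 19 gave 132 and 134 (single arrays were left out as a choice made after seeing the data). In 292 of the 294 genes the difference had the same sign in all 4 pools, and in 244 the TBT and MEHP arrays did not overlap; over all genes tested, arrays that did not overlap were found for 5.14% in the direction of TBT and 2.66% in the direction of MEHP. With the pool as a block in the fit, 569 genes passed, 318 higher (2.13%) and 251 lower (1.68%), and all 294 were among them. The count rested on the pools: leaving out pool 12 gave 414 genes, pool 15 gave 147, pool 19 gave 51 and pool 20 gave 56. Fitted on the 8 arrays alone, 77 genes passed, 63 higher and 14 lower, and 60 of these were among the 294. In cultures of mixed cells, fewer cells of a type and less RNA per cell cannot be told apart.

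**Figure D1:**
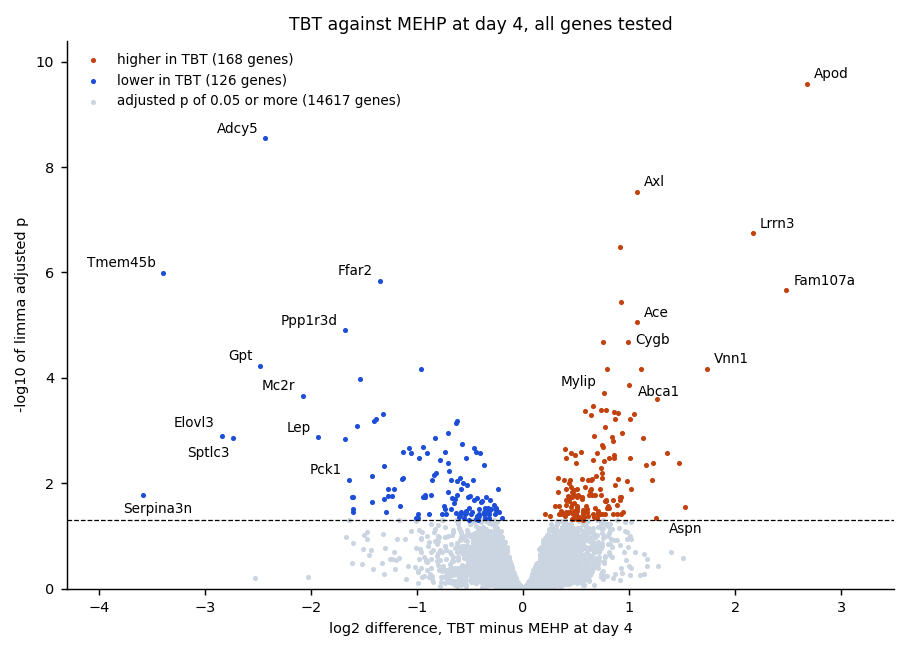
Each point is a gene, with its log2 difference (TBT minus MEHP at day 4, 4 arrays each) on the horizontal axis and -log10 of limma's adjusted p on the vertical axis. The 168 red points are genes higher in TBT, the 126 blue points genes lower in TBT, and the dashed line marks an adjusted p of 0.05. Apod and Adcy5 have the smallest adjusted p on their sides, and the falls reach -3.58 (Serpina3n) where the rises reach 2.67 (Apod).

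Several genes that LXR is known to switch on rose. Of 13 tested genes of an LXR target list, 5 were higher in TBT and 0 lower (1.13% of all genes tested were higher), and the median difference of the list was 0.68 against 0.00 over all genes. The sequences upstream of the 3 risen members with the largest rise are shown because LXR binds DNA with RXR at repeats of AGGTCA-like hexamers spaced by 4 bases, and RXR is a receptor that TBT binds. They are the 250 bases before each start in RefSeq's GRCm38.p6, on the strand of the gene: Apoc2 at chr7:19677942-19678191 (minus strand), Abca1 at chr4:53159896-53160145 (minus strand) and Mylip at chr13:45389492-45389741 (plus strand). Capitals mark a match, on either strand, to a loose form of that repeat: NGGTNA, any 4 bases, and NGGTNA again.
Apoc2: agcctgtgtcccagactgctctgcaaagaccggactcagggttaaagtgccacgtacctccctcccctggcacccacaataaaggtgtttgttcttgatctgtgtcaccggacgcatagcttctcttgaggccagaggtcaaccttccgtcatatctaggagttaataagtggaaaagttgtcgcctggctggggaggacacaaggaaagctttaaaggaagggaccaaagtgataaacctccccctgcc
Abca1: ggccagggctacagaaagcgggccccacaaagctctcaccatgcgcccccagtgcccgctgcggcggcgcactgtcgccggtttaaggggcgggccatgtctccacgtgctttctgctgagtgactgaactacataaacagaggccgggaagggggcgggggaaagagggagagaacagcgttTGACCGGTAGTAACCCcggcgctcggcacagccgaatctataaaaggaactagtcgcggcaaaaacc
Mylip: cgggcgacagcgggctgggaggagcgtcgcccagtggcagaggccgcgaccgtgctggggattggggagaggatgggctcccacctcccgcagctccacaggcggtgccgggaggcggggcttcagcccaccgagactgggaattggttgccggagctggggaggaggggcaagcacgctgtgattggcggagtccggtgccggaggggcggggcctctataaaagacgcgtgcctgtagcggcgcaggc
Abca1 holds 1 match, 67 to 52 bases before the start, which reads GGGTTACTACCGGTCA on the other strand. Apoc2 holds no match of the loose repeat but 1 copy of AGGTCA, and Mylip holds neither. The loose repeat occurs in 204 of 32851 such windows of all genes (0.621%) and the perfect repeat (AGGTCA, any 4 bases, AGGTCA) in 5 (0.0152%). AGGTCA alone, on either strand, occurs in 4607 windows (14.0%), the copies inside a repeat included. Among the LXR targets with a window, 2 of 9 held the loose repeat (Abca1 and Srebf1), against 61 of the 11614 genes tested that have one (0.525%). These are known targets of LXR and Srebf1 was not called, so this share tests nothing about the arrays. Of the genes called higher in TBT that have a window, 2 of 131 held the repeat (1.53%), and of those called lower 0 of 95. A match is a run of letters and not a measured binding site.

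Abca1, the transporter that loads cholesterol onto apolipoprotein A-I, measured 10.75, 10.46, 10.58 and 10.48 in TBT, against 9.40, 9.18, 9.93 and 9.75 in MEHP. Every TBT array lay above every MEHP array, and the difference was 1.00 ± 0.16 (SE; adjusted p 0.000139). Mylip, the ubiquitin ligase that marks the LDL receptor for destruction, measured 9.37, 9.35, 9.12 and 9.01 in TBT, against 8.58, 8.43, 8.48 and 8.32 in MEHP. These groups did not overlap either, with a difference of 0.76 ± 0.12 (adjusted p 0.000195). Pltp, which transfers phospholipid between lipoproteins, measured 11.07, 11.24, 11.12 and 11.18 in TBT, against 10.45, 10.13, 10.60 and 10.46 in MEHP, without overlap (0.74 ± 0.14, adjusted p 0.00188). Apoc2, the cofactor of lipoprotein lipase, measured 8.42, 8.14, 7.25 and 7.26 in TBT, against 6.02, 7.60, 6.15 and 6.42 in MEHP. Here the groups overlapped, because pool 15 was high under MEHP, although each pool was higher under TBT (1.22 ± 0.27, adjusted p 0.00851). Apoe, named beside them because it completes the 5 and chosen after its values were seen, is the apolipoprotein that macrophages secrete with cholesterol; it was 0.68 ± 0.16 higher in TBT (adjusted p 0.0168). The calls of Abca1 and Mylip remained without any of the pools. That of Pltp ended without pool 15 (adjusted p 0.0883) or 20 (0.0597), and that of Apoc2 without pool 12 (0.176), 19 (0.137) or 20 (0.0697) and on the 8 arrays alone (0.274).

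Not every LXR target differed. Abcg1, the cholesterol exporter to HDL, measured 10.81, 10.30, 10.41 and 10.41 in TBT, against 10.21, 9.60, 9.62 and 9.31 in MEHP. The groups did not overlap, but the difference of 0.80 (95% interval 0.32 to 1.27) missed the threshold with an adjusted p of 0.0655 and passed it with the pool as a block (0.00854), with the stricter filter (0.0482) and without pool 12 (0.0055). Srebf1, the master regulator of fatty acid synthesis and an LXR target in liver, averaged 9.44 in TBT and 9.15 in MEHP, a difference of 0.28 (95% interval -0.11 to 0.68; adjusted p 0.567). Scd1, the desaturase that makes oleate, averaged 12.38 in TBT and 12.39 in MEHP (difference -0.01, 95% interval -0.57 to 0.55). Nr1h3, which encodes LXRα, differed by 0.22 (95% interval -0.09 to 0.52; adjusted p 0.574). The mean level of the 13 targets ran from 9.59 to 9.65 over the TBT arrays, from 8.94 to 9.11 over the MEHP arrays and from 8.41 to 8.66 over the vehicle arrays. The mean level of 25 macrophage genes, for comparison, ran from 9.14 to 9.70 in TBT and from 8.87 to 9.62 in MEHP, and 0 of them passed the test; the part of macrophage numbers in the LXR values was not tested.

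**Figure D2:**
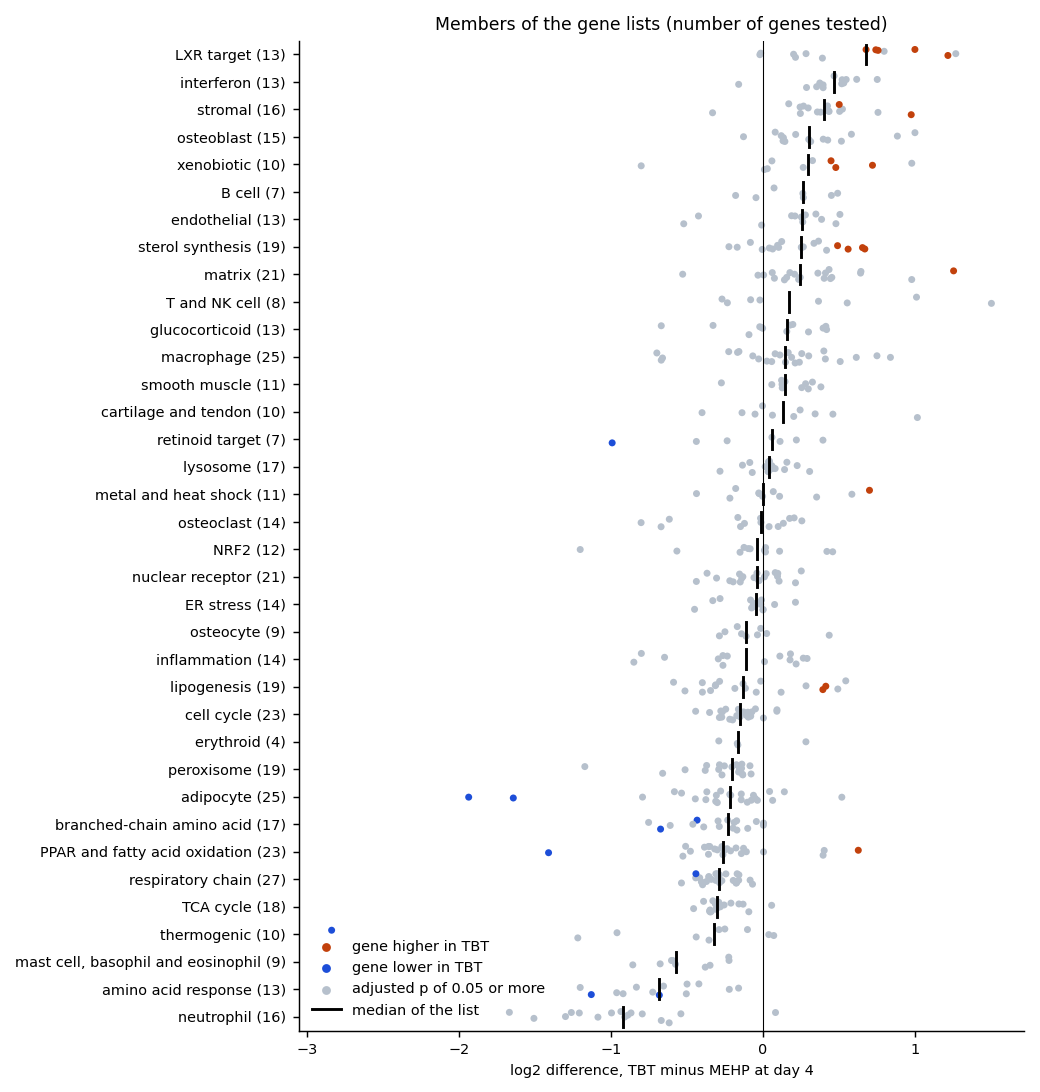
Each point is a tested member of the gene list named on the vertical axis (number tested in brackets), placed by its log2 difference, TBT minus MEHP at day 4. Red and blue points are members higher and lower in TBT by limma, grey points those with an adjusted p of 0.05 or more, and black bars the list medians. LXR targets lie highest with a median of 0.68 and neutrophil genes lowest with a median of -0.92 and no called member.

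Most fat cell genes gave no call between the compounds. Of 25 adipocyte genes tested, 0 were higher and 2 lower in TBT (0.845% of all genes were lower), the median difference was -0.22, and 21 of the 25 lay below 0. Fabp4, the lipid carrier of fat cells, measured 12.10, 12.16, 12.31 and 12.32 in TBT, against 12.16, 12.21, 12.36 and 12.30 in MEHP. The ranges overlapped, and the difference was -0.04 (95% interval -0.44 to 0.37). Pparg, the receptor gene, measured 9.53, 9.68, 10.06 and 9.90 in TBT, against 9.66, 9.72, 10.45 and 10.20 in MEHP. Each pool was lower under TBT, yet the difference of -0.22 (95% interval -0.49 to 0.06) did not pass (adjusted p 0.516). Cebpa, the second main factor of fat cell formation, differed by -0.31 (95% interval -0.61 to -0.01; adjusted p 0.347). The lipid droplet protein Plin1 differed by -0.37 (95% interval -1.23 to 0.48), the droplet fusion protein Cidec by -0.53 (-2.14 to 1.08) and the hormone Adipoq by 0.06 (-0.60 to 0.73). Lpl, lipoprotein lipase, differed by 0.14 (-0.05 to 0.34), the fatty acid importer Cd36 by -0.08 (-0.40 to 0.25) and Car3, a carbonic anhydrase of fat cells, by -0.10 (-1.37 to 1.17). The widest of these intervals reach past a log2 difference of 1, in both directions for Cidec and Car3 and only towards lower in TBT for Plin1. Differences of that size in those directions were not excluded here.

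The members that fell were the hormone leptin and the enzyme Pck1. Lep measured 3.10, 3.21, 2.89 and 3.55 in TBT, against 3.89, 5.05, 5.74 and 5.81 in MEHP. All TBT arrays lay below the table median of 4.05, near background, so the size of the difference, -1.93 ± 0.37 (adjusted p 0.00133), is uncertain. Pck1, which makes phosphoenolpyruvate and feeds glycerol to fat storage, measured 4.08, 4.26, 4.34 and 4.46 in TBT, against 4.87, 5.36, 7.05 and 6.43 in MEHP. The groups did not overlap, and the MEHP arrays of pools 19 and 20 stood well above those of pools 12 and 15 (-1.64 ± 0.37, adjusted p 0.00851). Lipe, hormone-sensitive lipase, passed with the pool as a block (-0.79, adjusted p 0.00805, against 0.104 without it) and was chosen after its values were seen. The thermogenic list held 1 fallen gene of 10 tested (0.845% of all genes were lower), Elovl3, an elongase of very long fatty acids in brown fat. Its values were 2.73, 3.17, 3.59 and 4.21 in TBT, against 5.06, 4.80, 7.70 and 7.48 in MEHP (-2.84 ± 0.53, adjusted p 0.00125), and 3 of the 4 TBT arrays were below 4.05. Ucp1, the uncoupling protein of brown fat, reached at most 3.81 in TBT and 4.28 in MEHP, around background in both (difference -0.29, adjusted p 0.574). Without pool 19 the adjusted p was 0.127 for Lep, 0.159 for Pck1 and 0.0809 for Elovl3; without pool 20 it was 0.0597 for Lep and 0.206 for Pck1; on the 8 arrays alone it was 0.0776, 0.166 and 0.142 for the 3 genes in that order.

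Fatty acid oxidation gave a call in each direction. Of 23 genes tested, Cpt1a rose and Ucp3 fell, the median was -0.26 and 19 lay below 0 (1.13% of all genes were higher and 0.845% lower). Cpt1a, the gate of mitochondrial fatty acid entry, measured 9.32, 9.19, 9.11 and 9.06 in TBT, against 9.0, 8.61, 8.30 and 8.27 in MEHP. The groups did not overlap (0.63 ± 0.15, adjusted p 0.0142). Ucp3, a mitochondrial carrier of muscle and brown fat, measured 3.85, 4.50, 4.88 and 5.28 in TBT, against 5.32, 5.66, 6.38 and 6.79 in MEHP (-1.41 ± 0.25, adjusted p 0.000661). Angptl4 and Pdk4, classic PPAR targets that inhibit lipoprotein lipase and pyruvate dehydrogenase, differed by 0.40 each, with 95% intervals of 0.04 to 0.76 and 0.04 to 0.77 and adjusted p of 0.287 and 0.29. All 19 peroxisome genes lay below 0 with a median of -0.20, and 0 passed, 3 with the pool as a block. Of 27 respiratory chain genes, all below 0 with a median of -0.29, Ndufb8 of complex I fell (-0.44 ± 0.12, adjusted p 0.0477), and of 18 genes of the TCA cycle 0 passed (median -0.30). The call of Cpt1a ended without pool 15, 19 or 20 (adjusted p 0.0942, 0.213 and 0.195) and that of Ndufb8 without pool 15, 19 or 20 (0.161, 0.309 and 0.27). On the 8 arrays alone neither Cpt1a (0.167), Ucp3 (0.185) nor Ndufb8 (0.39) passed, and Ndufb8 was also lost with cyclic loess (0.0606) or without the filter on low values (0.0698).

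Part of the cholesterol synthesis list rose. Of 19 genes tested, 4 were higher and 0 lower (1.13% of all genes were higher), with a median of 0.25. The mean level of the list was 8.84, 8.63, 8.82 and 8.80 in TBT, against 8.00, 8.57, 8.88 and 8.75 in MEHP. The gap was thus wide in pool 12 only, and in pool 19 the list lay lower in TBT. Msmo1, a sterol demethylating oxidase, measured 8.71, 8.34, 8.34 and 8.30 in TBT, against 7.56, 8.07, 7.70 and 7.74 in MEHP. The groups did not overlap, and the gap was widest in pool 12 (0.66 ± 0.11, adjusted p 0.000337). Srebf2, the transcription factor of the pathway, measured 8.84, 8.64, 8.58 and 8.53 in TBT, against 7.88, 8.52, 8.04 and 8.18 in MEHP (0.49 ± 0.10, adjusted p 0.00296). Squalene synthase, Fdft1, was higher by 0.56 ± 0.15 (adjusted p 0.0378) and the sterol reductase Hsd17b7 by 0.67 ± 0.19 (adjusted p 0.0436). Hmgcs1, Insig1 and Cyp51, other well known SREBP2 targets on the list, differed by 0.04, 0.07 and 0.26 with adjusted p of 0.945, 0.941 and 0.635. Of 19 genes of fatty acid synthesis, the elongase Elovl5 (0.40 ± 0.08, adjusted p 0.00225) and the desaturase Fads1 (0.41 ± 0.10, adjusted p 0.0208) rose and 0 fell, while the synthase Fasn differed by -0.18 (adjusted p 0.848). Msmo1 remained called without any of the pools. The adjusted p without pool 12 was 0.126 for Srebf2, 0.301 for Fdft1, 0.149 for Hsd17b7 and 0.194 for Fads1, and the difference of Fdft1 was then 0.32, against 0.56. Without pool 15 it was 0.0572 for Fdft1 and 0.142 for Hsd17b7. Without pool 19 it was 0.116 for Srebf2, 0.0932 for Fdft1, 0.0932 for Hsd17b7, 0.054 for Elovl5 and 0.0816 for Fads1. Without pool 20 it was 0.245 for Fdft1, 0.27 for Hsd17b7 and 0.202 for Fads1. On the 8 arrays alone it was 0.0941 for Msmo1, 0.21 for Srebf2, 0.3 for Fdft1, 0.154 for Hsd17b7, 0.11 for Elovl5 and 0.138 for Fads1. Fdft1 and Hsd17b7 were also lost with cyclic loess (0.056 and 0.0574) and without the filter (0.0543 and 0.0614).

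Among the largest rises, Apod stood first. This lipocalin, which carries small lipids, measured 7.26, 7.81, 7.55 and 7.54 in TBT, against 4.70, 4.90, 4.54 and 5.33 in MEHP. The TBT arrays lay close together and all above the MEHP arrays, and the difference of 2.67 ± 0.23 corresponds to 6.38-fold (adjusted p 2.59e-10). Fam107a, an actin-binding protein, measured 6.25, 7.32, 8.27 and 7.89 in TBT, against 4.63, 4.60, 5.41 and 5.18 in MEHP (2.48 ± 0.32, adjusted p 2.18e-06). Lrrn3, a leucine-rich repeat membrane protein of neurons, measured 6.77, 7.19, 7.14 and 6.99 in TBT, against 4.94, 4.83, 4.68 and 4.98 in MEHP (2.16 ± 0.25, adjusted p 1.8e-07). Neither gene overlapped between the groups, and the pools of Fam107a differed more from one another than those of Lrrn3. Vnn1, a pantetheinase of the cell surface, measured 7.48, 8.15, 8.21 and 7.99 in TBT, against 5.97, 6.27, 6.28 and 6.36 in MEHP (1.73 ± 0.27, adjusted p 6.75e-05). Abi3, a member of the actin-regulating Abi family, measured 8.20, 7.66, 7.60 and 7.90 in TBT, against 6.51, 6.21, 6.57 and 7.05 in MEHP (1.26 ± 0.21, adjusted p 0.000257). These 5 genes were called without any of the pools and under all 6 other processing settings, but the difference of Fam107a was 1.48 with its probe sets averaged, against 2.48.

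The next rises were P2rx2, an ATP-gated channel (1.53 ± 0.39, adjusted p 0.0284), Moxd1, a copper monooxygenase (1.46 ± 0.31, 0.00415), and Pilrb1, an activating receptor of myeloid cells (1.36 ± 0.27, 0.00264). Aspn, the matrix proteoglycan asporin, followed with 1.26 ± 0.35 (0.0462), then P2ry13, an ADP receptor, with 1.22 ± 0.26 (0.00405), and Cldn11, a tight junction protein, with 1.16 ± 0.25 (0.00449). Their TBT arrays ranged from 5.44 to 6.76 for P2rx2, 5.68 to 6.51 for Moxd1 and 6.55 to 7.03 for Pilrb1, against MEHP arrays of 3.82 to 5.00, 3.96 to 5.76 and 5.00 to 5.83 in the same order. For Aspn the TBT arrays ranged from 7.64 to 8.36, for P2ry13 from 6.75 to 7.31 and for Cldn11 from 7.85 to 8.34, against 6.52 to 7.00, 5.58 to 6.17 and 5.96 to 7.88 in MEHP in the same order. Only Moxd1 and Cldn11 of these 6 overlapped between the groups, each through 1 MEHP array, pool 20. Pilrb1 has a close relative, Pilrb2, that was also called higher at levels near background (1.01 ± 0.24, adjusted p 0.0128, chosen after its values were seen), and how far their probe sets share signal was not tested. Without pool 15 the adjusted p was 0.115 for P2rx2, 0.157 for Moxd1, 0.312 for Aspn and 0.0533 for Cldn11. Without pool 19 it was 0.191 for P2rx2, 0.0513 for Moxd1, 0.0932 for Pilrb1, 0.329 for Aspn and 0.0828 for P2ry13. Without pool 20 it was 0.166 for P2rx2, 0.137 for Aspn and 0.101 for P2ry13, and without pool 12 it was 0.058 for Cldn11. On the 8 arrays alone P2rx2 (0.096), Moxd1 (0.145) and Cldn11 (0.251) had no call, and Aspn had none without the filter (0.0622).

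In 9 of the 12 largest falls MEHP was higher than vehicle while TBT gave no call against vehicle. Tmem45b, a membrane protein, measured 3.42, 3.80, 3.88 and 3.73 in TBT, against 5.80, 6.62, 8.04 and 7.95 in MEHP. All TBT arrays were near background, so the difference of -3.40 ± 0.42 (adjusted p 1.02e-06) is of uncertain size. Adcy5, an adenylyl cyclase, measured 4.02, 4.86, 4.76 and 4.87 in TBT, against 6.28, 6.90, 7.62 and 7.43 in MEHP (-2.43 ± 0.24, adjusted p 2.83e-09). Mc2r, the receptor for ACTH, measured 4.89, 5.20, 5.35 and 5.15 in TBT, against 6.35, 6.76, 8.09 and 7.72 in MEHP (-2.08 ± 0.34, adjusted p 0.000219). In each of these genes every TBT array lay below every MEHP array, and pools 19 and 20 were the highest under MEHP. Their calls remained without any of the pools. Sptlc3, a subunit of the enzyme that starts sphingolipid synthesis, measured 4.63, 5.77, 6.78 and 6.22 in TBT, against 7.39, 8.38, 9.60 and 8.98 in MEHP (-2.74 ± 0.52, adjusted p 0.00141). Gpt, alanine aminotransferase, measured 4.48, 4.88, 5.68 and 5.63 in TBT, against 6.38, 6.95, 8.76 and 8.50 in MEHP (-2.48 ± 0.38, adjusted p 5.89e-05). Ppp1r3d, which directs a phosphatase to glycogen, fell by 1.68 ± 0.24 (adjusted p 1.24e-05), with TBT arrays of 5.27 to 5.80 and MEHP arrays of 6.46 to 8.08. The last 3 genes showed no overlap and were lost on the 8 arrays alone (adjusted p 0.0754 for Sptlc3, 0.105 for Gpt and 0.0712 for Ppp1r3d).

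Serpina3n, a protease inhibitor of the acute phase, had the widest difference, -3.58 ± 0.86 (adjusted p 0.0168). It measured 5.89, 5.86, 5.42 and 5.26 in TBT, against 10.45, 11.01, 7.60 and 7.68 in MEHP. The MEHP arrays fell into high values in pools 12 and 15 and lower ones in pools 19 and 20, all above the TBT arrays. Vehicle arrays of this gene averaged 7.21 ± 2.44 (SD, n = 4), and mouse Serpina3 genes are close copies that a probe set may share. Serpinb1a, an inhibitor of neutrophil proteases, measured 5.39, 4.40, 4.16 and 4.36 in TBT, against 6.86, 6.93, 5.16 and 5.81 in MEHP (-1.61 ± 0.39, adjusted p 0.0182), and its groups overlapped. Cyp2e1, a cytochrome P450 of ethanol and lipid metabolism, lay at 3.40 to 3.65 in TBT, near background on every array, and at 3.75 to 6.06 in MEHP (-1.68 ± 0.32, adjusted p 0.00146). Its SD was 0.12 over the TBT arrays and 1.09 over the MEHP arrays, while the SE pools the spread of 13 groups. Averaged over the pools, neutrophil genes lay in the same direction as these falls without passing the test. Of 16 genes tested 0 were called, 15 lay below 0, and the median was -0.92 with S100a8 at -1.67 (adjusted p 0.104). The mean level of the 16 was 7.20, 6.38, 6.10 and 5.96 in TBT, against 6.48, 8.48, 6.90 and 7.58 in MEHP. In pool 12 it was thus higher in TBT, unlike in the other pools. The part of the neutrophil level in the falls was not tested. The 9 genes tested of mast cells, basophils and eosinophils had a median of -0.57 with 0 called. Serpina3n lost its call without pool 12 (adjusted p 0.051), 15 (0.0981), 19 (0.0932) or 20 (0.103), and Serpinb1a without pool 15 (0.205), 19 (0.0932) or 20 (0.142). Cyp2e1 lost it without pool 19 (0.14) or 20 (0.104), and on the 8 arrays alone the adjusted p was 0.0941 for Serpina3n, 0.179 for Serpinb1a and 0.189 for Cyp2e1.

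**Figure D3:**
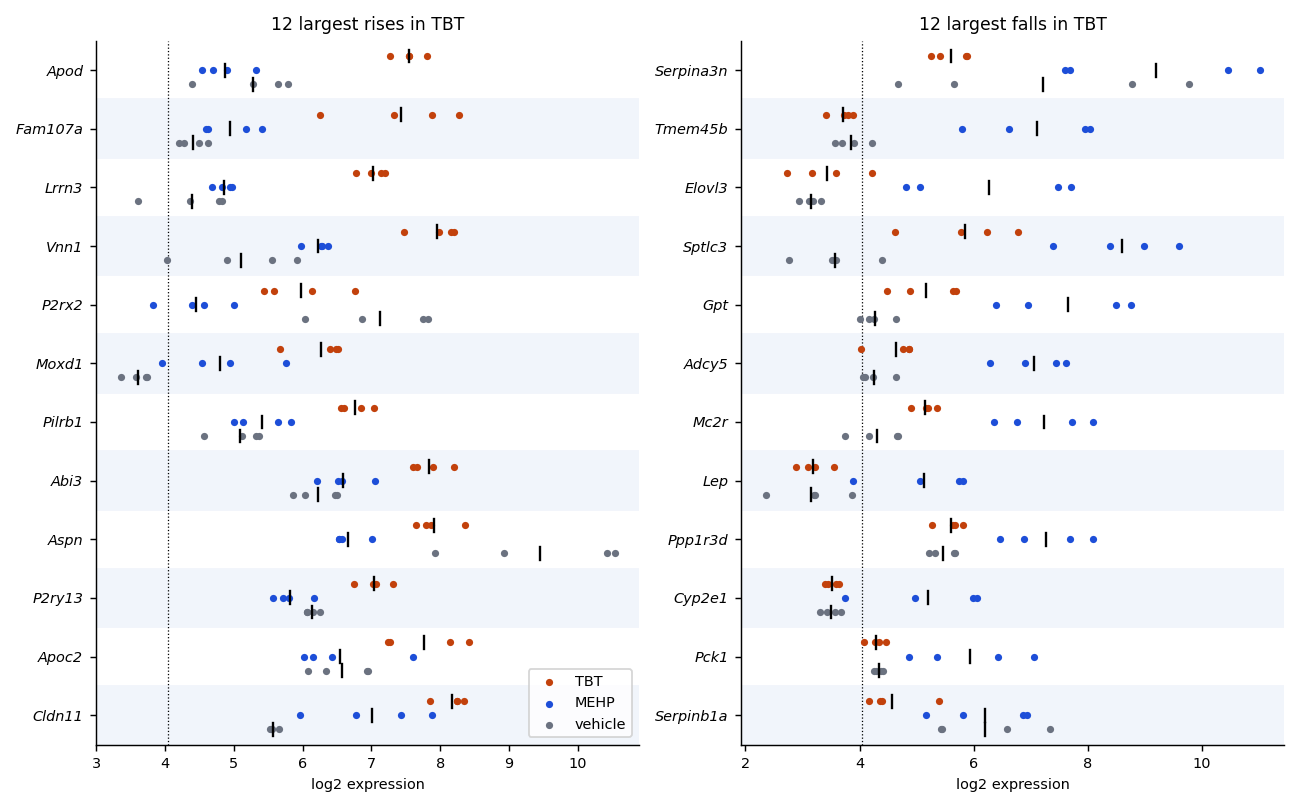
Each point is 1 array at day 4, with log2 expression on the horizontal axis, for the 12 largest rises (left) and 12 largest falls (right) in TBT against MEHP; red is TBT, blue MEHP and grey vehicle, 4 arrays each, and black bars are means. The dotted line is the table median, 4.05. For Apod the TBT arrays (7.26 to 7.81) lie above both other groups, whereas for Tmem45b the MEHP arrays (5.80 to 8.04) lie above both other groups.

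Phgdh and Psat1, enzymes of serine synthesis, fell. Of 13 genes of the amino acid response list, 0 were higher and 2 lower (0.845% of all genes were lower). All 13 lay below 0, with a median of -0.68. The mean level of the list was 6.74, 6.66, 7.07 and 7.01 in TBT, against 8.46, 7.04, 7.40 and 7.31 in MEHP. Each pool was lower under TBT, but the gap was by far the widest in pool 12. Vehicle was also highest in pool 12 (7.71, 6.92, 6.63 and 6.71). Phgdh, which starts the path, measured 5.31, 5.41, 5.58 and 5.74 in TBT, against 7.41, 5.73, 6.73 and 6.68 in MEHP. Pool 15 under MEHP reached into the TBT range, and the difference was -1.13 ± 0.23 (adjusted p 0.00261). Psat1, the next enzyme of that path, measured 7.07, 7.17, 7.57 and 7.52 in TBT, against 8.38, 7.62, 8.20 and 7.85 in MEHP, without overlap (-0.68 ± 0.15, adjusted p 0.00851). Asparagine synthetase, Asns, differed by -0.83 and passed with the pool as a block but not without it (adjusted p 0.0462 with it and 0.0736 without it). Trib3 and Chac1, further targets of the factor ATF4, differed by -0.92 (adjusted p 0.303) and -0.65 (0.402). Of 17 genes that break down branched-chain amino acids, the dehydrogenase subunit Dbt (-0.67 ± 0.17, adjusted p 0.0194) and the valine enzyme Hibadh (-0.43 ± 0.12, adjusted p 0.0423) fell and 0 rose, with a median of -0.23. Several of these calls were lost with a pool left out, while the differences kept their direction: without pool 20, for example, Phgdh differed by -1.19 and Psat1 by -0.80, and without pool 12 Psat1 differed by -0.47 and Dbt by -0.74. Without pool 12 the adjusted p was 0.0635 for Psat1 and 0.0504 for Dbt, and without pool 15 it was 0.123 for Hibadh. Without pool 19 it was 0.113 for Phgdh, 0.0932 for Psat1, 0.276 for Dbt and 0.307 for Hibadh, and without pool 20 it was 0.0597, 0.0855, 0.257 and 0.282 for the 4 genes in that order. On the 8 arrays alone it ran from 0.184 for Phgdh to 0.409 for Hibadh, and Hibadh was also lost with cyclic loess (0.0601) and without the filter (0.0622).

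No bone gene passed the test between the compounds, with 4 arrays a group. Of 15 osteoblast genes tested 0 passed in either direction, 14 lay above 0, and the median was 0.30. Alpl, the phosphatase that mineralising cells display, measured 8.61, 8.98, 8.32 and 8.44 in TBT, against 8.32, 8.65, 7.85 and 7.94 in MEHP. Each pool was higher under TBT, but the groups overlapped and the difference of 0.40 (95% interval -0.15 to 0.95) had an adjusted p of 0.57. Sp7, the osteoblast factor osterix, measured 6.34, 6.89, 5.65 and 5.72 in TBT, against 5.60, 6.78, 4.85 and 5.04 in MEHP (0.58, 95% interval -0.31 to 1.47, adjusted p 0.626). Col1a1, the main collagen of bone, differed by 0.43 (95% interval 0.06 to 0.79, adjusted p 0.247), Ibsp, bone sialoprotein, by 0.12 (-1.12 to 1.37) and Tnfrsf11b, the decoy receptor of RANKL, by 0.14 (-0.50 to 0.77). Bmp4 differed by 0.89 and passed with the pool as a block but not without it (adjusted p 0.0336 with it and 0.0508 without it). Against vehicle, 14 of the 15 osteoblast genes were lower under TBT, with a median of -1.44 (9.42% of all genes were lower), and 14 were lower under MEHP, with a median of -1.68 (11.7%). Of 14 osteoclast genes 0 passed; Acp5, the osteoclast phosphatase, was lower in TBT with the pool as a block (-0.80, 95% interval -1.32 to -0.28, adjusted p 0.0365, against 0.101 without it), and Ctsk, cathepsin K, differed by -0.01.

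A pair of stromal support genes rose. Of 16 tested, 2 rose and 0 fell (1.13% of all genes were higher), 15 lay above 0 and the median was 0.40. Il7, the cytokine that stroma supplies to developing lymphocytes, measured 7.04, 7.12, 6.96 and 6.80 in TBT, against 5.78, 6.29, 5.85 and 6.11 in MEHP (0.98 ± 0.22, adjusted p 0.00907). Foxc1, a factor of the marrow niche, measured 9.48, 9.55, 9.53 and 9.62 in TBT, against 9.06, 8.97, 9.0 and 9.15 in MEHP (0.50 ± 0.14, adjusted p 0.0388). In both genes the arrays of the groups did not overlap and lay close within each group. Cxcl12, the chemokine that holds blood stem cells in the niche, differed by 0.17 (adjusted p 0.599), Kitl, stem cell factor, by 0.43 (0.222) and the leptin receptor, Lepr, by 0.43 (0.809). Among 21 matrix genes Aspn rose and 0 fell, with a median of 0.25. Of 10 xenobiotic genes 3 rose: Cyp1b1, a P450 of stromal cells (0.45 ± 0.10, adjusted p 0.012), the epoxide hydrolase Ephx1 (0.48 ± 0.12, 0.0164) and the glutathione transferase Gstt1 (0.72 ± 0.17, 0.0128), which has close copies. Of 11 metal and heat shock genes only Hspa1a, an inducible HSP70, passed (0.70 ± 0.19, adjusted p 0.0353), and of 7 retinoid targets only Tgm2, transglutaminase 2, which fell (-0.99 ± 0.27, 0.0388; 0.845% of all genes fell). Cyp26b1, a retinoic acid hydroxylase, differed by 0.40 (95% interval -0.02 to 0.81, adjusted p 0.39). Of 13 interferon genes, 12 lay above 0 with a median of 0.47 and 0 were called; their mean level ran from 7.37 to 7.91 in TBT and from 6.22 to 8.14 in MEHP. Without pool 12 the adjusted p was 0.0852 for Tgm2. Without pool 15 it was 0.0785 for Il7, 0.229 for Foxc1, 0.0689 for Cyp1b1, 0.257 for Gstt1, 0.178 for Hspa1a and 0.125 for Tgm2. Without pool 19 it was 0.154 for Il7, 0.258 for Foxc1, 0.187 for Cyp1b1, 0.106 for Gstt1, 0.255 for Ephx1, 0.316 for Hspa1a and 0.218 for Tgm2. Without pool 20 it was 0.0755 for Il7, 0.26 for Foxc1, 0.179 for Cyp1b1, 0.0855 for Gstt1, 0.284 for Ephx1, 0.289 for Hspa1a and 0.173 for Tgm2. On the 8 arrays alone Cyp1b1 (0.0684), Gstt1 (0.088), Ephx1 (0.179), Hspa1a (0.315) and Tgm2 (0.192) were not called, and without the filter Foxc1 (0.0571) and Tgm2 (0.0543) were not.

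Vehicle arrays place these differences, and both comparisons share those 4 arrays. TBT changed 2990 genes against vehicle (20.1%) and MEHP 3548 (23.8%). Of the 168 genes higher in TBT than in MEHP, 81 were higher than vehicle under TBT with no call under MEHP, 40 were lower than vehicle under MEHP with no call under TBT, 20 were higher under both, 7 were lower under both and 20 had no call under either. Of the 126 genes lower in TBT, 83 were higher than vehicle under MEHP with no call under TBT, 20 were higher under both, 15 were lower under TBT with no call under MEHP and 8 had no call under either. A call under 1 compound and none under the other is not by itself a test of their difference; that test is the direct comparison. Apod was 2.27 ± 0.23 above vehicle under TBT (adjusted p 1.23e-09) and -0.41 ± 0.23 from it under MEHP (0.227). Abca1 was above vehicle under both, by 1.80 ± 0.16 under TBT (4.53e-11) and 0.80 ± 0.16 under MEHP (0.000197). Srebf2 stood 0.03 ± 0.10 from vehicle under TBT (0.883) and -0.46 ± 0.10 under MEHP (0.000454), so the rise against MEHP stood beside a level below vehicle in MEHP. Aspn was below vehicle under both, by -1.54 ± 0.35 under TBT (0.00129) and -2.80 ± 0.35 under MEHP (6.24e-08). Sptlc3 was above vehicle under both, by 2.29 ± 0.52 under TBT (0.00132) and 5.03 ± 0.52 under MEHP (1e-09). Adcy5 was 0.37 ± 0.24 from vehicle under TBT (0.279) and 2.80 ± 0.24 above it under MEHP (9.98e-12). Serpinb1a was -1.62 ± 0.39 from vehicle under TBT (0.00245) and -0.01 ± 0.39 under MEHP (0.989). Of the 25 adipocyte genes, 23 were higher than vehicle under TBT with a median of 2.56 (10.6% of all genes were higher) and 25 under MEHP with a median of 2.84 (12.1%). Of the 13 LXR targets, 11 were higher than vehicle under TBT with a median of 1.14 and 6 under MEHP with a median of 0.60. On the arrays of each comparison alone, 1676 genes were called under TBT and 1048 under MEHP; without pool 20 the counts were 1306 and 1503, and without pool 19 they were 1497 and 1626.

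**Figure D4:**
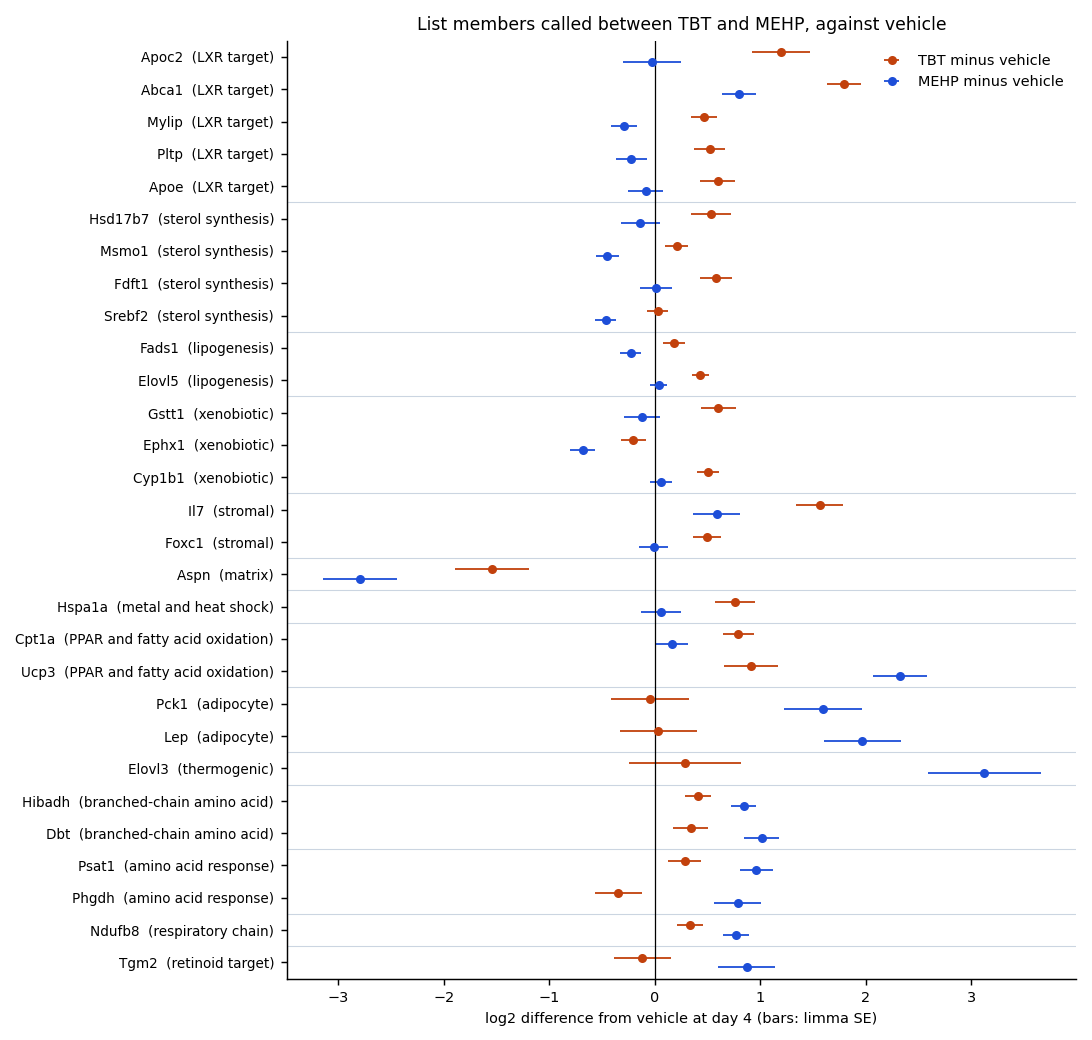
The vertical axis names the list members that differed between TBT and MEHP at day 4 (list in brackets), and the horizontal axis gives the log2 difference from vehicle of TBT (red) and of MEHP (blue), with limma's SE as bars and 4 arrays a group. For Abca1 both points lie right of 0 (1.80 and 0.80), for Aspn both left of 0 (-1.54 and -2.80), and for Lep the TBT point lies at 0.03 and the MEHP point at 1.97. Apoc2, Abca1, Mylip, Pltp and Apoe have the TBT point right of the MEHP point.

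The other cultures of day 4 with receptor agonists give a scale for these levels, set beside them here without a test. Apod averaged 7.54 ± 0.22 under TBT, 4.87 ± 0.34 under MEHP, 8.03 ± 0.36 under LG268 (an RXR agonist, 100 nM), 4.45 ± 0.22 under rosiglitazone (a PPARγ agonist, 100 nM) and 5.28 ± 0.63 in vehicle (SD, n = 4 each). Abca1 averaged 10.57 ± 0.14 under TBT, 9.57 ± 0.34 under MEHP, 10.95 ± 0.15 under LG268, 9.57 ± 0.10 under rosiglitazone and 8.77 ± 0.27 in vehicle. For Apod and Abca1 the TBT level lay nearer to that of LG268 than of rosiglitazone, and the MEHP level the other way round. Mylip, Apoc2 and Abcg1 were placed likewise, but Pltp, Srebf1 and Nr1h3 were not. Pltp averaged 11.15 under TBT, 11.44 under LG268 and 11.02 under rosiglitazone. Srebf1 averaged 9.44, 9.02 and 9.75 in that order, and Nr1h3 7.90, 7.55 and 8.20. In these genes the TBT level lay nearer to that of rosiglitazone. The MEHP level lay nearer to that of LG268 for Srebf1 (9.15) and Nr1h3 (7.69), and nearer to that of rosiglitazone for Pltp (10.41). Apoc2 averaged 6.55 under MEHP, close to vehicle (6.57), with rosiglitazone at 5.93. Adcy5 averaged 4.63 ± 0.41 under TBT, 7.06 ± 0.60 under MEHP, 4.11 ± 0.19 under LG268, 8.44 ± 0.24 under rosiglitazone and 4.25 ± 0.26 in vehicle. Fabp4 averaged 12.22 ± 0.11 under TBT, 12.26 ± 0.09 under MEHP, 11.61 ± 0.32 under LG268, 12.39 ± 0.10 under rosiglitazone and 10.08 ± 0.46 in vehicle, so that TBT and MEHP both stood above LG268.

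At day 1 the same pair of compounds differed in 5 genes (0.0335%), all higher in TBT: Abca1, Abcg1, Mylip, Pltp and Rnf145, and 372 genes had an unadjusted p under 0.05. The first 4 are among the LXR targets named above. Rnf145, a ubiquitin ligase of the endoplasmic reticulum, was not on the LXR target list, which does not say whether LXR regulates it. Abca1 measured 10.65, 10.44, 10.49 and 10.56 in TBT at day 1, against 9.01, 8.47, 8.91 and 8.95 in MEHP. The groups stood far apart (1.70 ± 0.16, adjusted p 2.75e-09). Abcg1 measured 10.23, 9.80, 10.02 and 9.69 in TBT, against 8.54, 8.36, 8.89 and 8.45 in MEHP (1.38 ± 0.24, adjusted p 0.00323). Pltp differed by 0.92 ± 0.14 (0.000807), Mylip by 0.70 ± 0.12 (0.00513) and Rnf145 by 0.54 ± 0.11 (0.0391), with no overlap between the arrays of the groups in any of them. All but Abcg1 were called again at day 4, where Rnf145 differed by 0.54 ± 0.11 (adjusted p 0.00258), a call lost without pool 20 (0.0916) and on the 8 arrays alone (0.148). With the pool as a block 11 genes were called at day 1, and without pool 19 or 20 only 1 was.

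The difference between the compounds changed from day 1 to day 4 in 6 genes by an interaction test (0.0402%), 3 towards higher in TBT (0.0201%) and 3 towards lower (0.0201%), with 786 genes at an unadjusted p under 0.05. Apod differed by 0.70 ± 0.23 at day 1 (adjusted p 1) and by 2.67 ± 0.23 at day 4, a change of 1.98 ± 0.33 (adjusted p 0.00224). The MEHP arrays of Apod at day 1 lay at 3.74, 4.01, 3.81 and 4.24, around background, so the size of its day 1 difference is uncertain. Lrrn3 differed by 0.46 ± 0.25 at day 1, and its difference grew by 1.70 ± 0.35 (0.0404). Cacnb1, a calcium channel subunit, measured 5.24, 5.12, 5.22 and 5.31 in TBT at day 1, against 5.57, 5.48, 5.49 and 5.58 in MEHP, and 5.62, 5.65, 5.44 and 5.72 in TBT at day 4, against 5.16, 5.35, 5.12 and 5.17 in MEHP. Its TBT arrays thus lay below the MEHP arrays at day 1 and above them at day 4, a change of 0.71 ± 0.12 (0.00224), although the day 1 difference alone did not pass (-0.31 ± 0.08, 0.583). Its day 4 difference was 0.41 ± 0.08 (0.00327), with adjusted p of 0.0544 without pool 19, 0.167 without pool 20 and 0.123 on the 8 arrays alone. Tmem45b differed by -0.02 ± 0.42 at day 1, with both groups near background, and its difference changed by -3.37 ± 0.60 (0.00427). Adcy5 differed by -0.34 ± 0.24 at day 1 and changed by -2.09 ± 0.33 (0.00224). Ffar2, a receptor for short-chain fatty acids, measured 4.00, 4.10, 4.38 and 4.48 in TBT at day 4, against 5.25, 5.29, 5.97 and 5.86 in MEHP (-1.35 ± 0.17, adjusted p 1.43e-06). Its difference was -0.10 ± 0.17 at day 1 and changed by -1.25 ± 0.24 (0.018). All its day 1 arrays of both compounds lay at 3.59 to 3.87, near background. With the pool as a block 29 genes passed the interaction test, and on the arrays of the 4 groups alone 11 did. Without pool 12 the count was 20, without pool 15 it was 2, and without pool 19 or 20 it was 0.

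**Figure D5:**
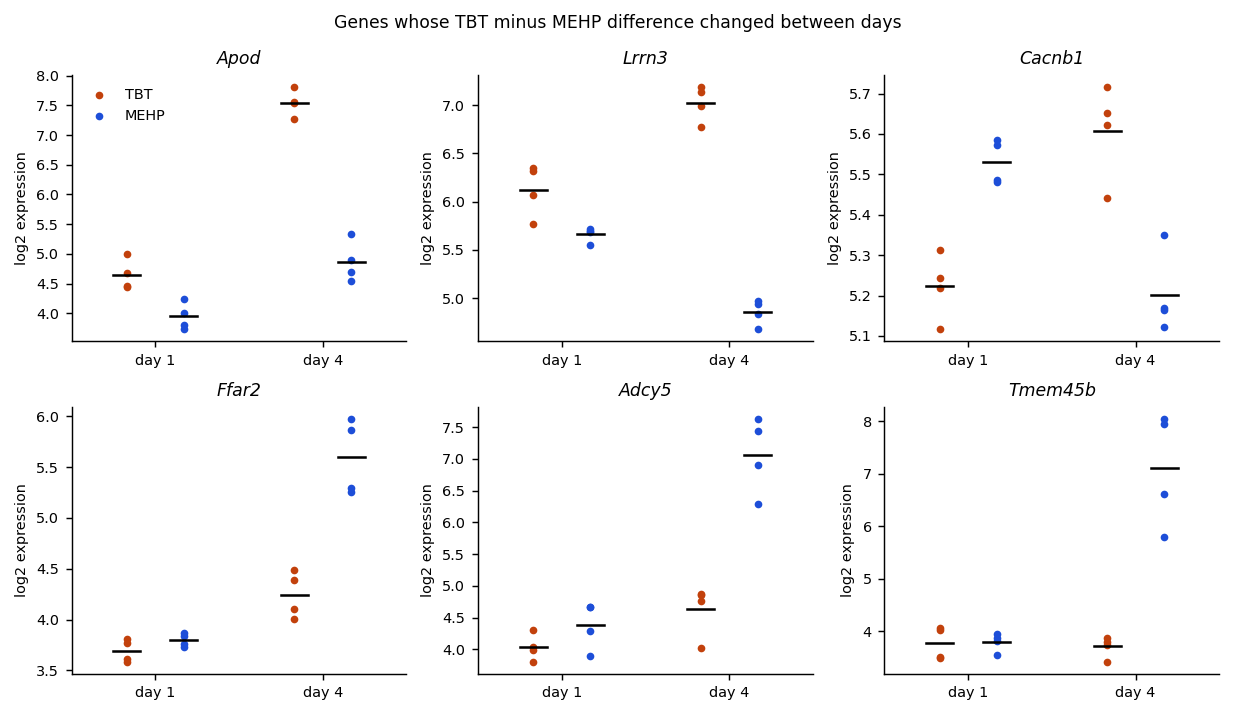
Each panel is a gene whose TBT minus MEHP difference changed between days, with log2 expression on the vertical axis (scales differ between panels) and 4 arrays each of TBT (red) and MEHP (blue) at day 1 and day 4; black bars are means. Apod separates further at day 4 (2.67 against 0.70 at day 1), Cacnb1 changes order, and Tmem45b and Ffar2 stand near each other at day 1 and apart at day 4.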

How the data were processed

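The authors deposited log2 expression values of 41345 probe sets on 52 arrays, for which the submitters' processing notes name R 3.3.1 and the package oligo; how the background was corrected and the arrays normalized is not given in the sources used here. Of the probe sets, 23521 were annotated to 1 gene, 1814 to several and 16010 to none; only the first kind was used, the probe set with the highest mean standing for a gene. A gene was tested if at least 4 arrays lay above the table median of 4.05, which left 14911 of 22180 genes. Groups were compared with limma 3.58.1 in R 4.3.3 (group means, all 52 arrays, 39 residual degrees of freedom), two-sided; p-values were adjusted by Benjamini-Hochberg across all tested genes, and an adjusted p under 0.05 was a call. SEs pool the spread of 13 groups, which can be narrower than that of the groups compared. Elovl3, for example, had an SD of 1.54 over the MEHP arrays at day 4 and 0.16 over the vehicle arrays at day 4. The script was tested on simulated data. Figures were drawn with matplotlib 3.10.9.

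Members, gene lists and tests were chosen with earlier results of these data known. Named genes were the 12 largest rises and 12 largest falls with the same sign in all pools, passing over genes without a regular symbol, up to 4 called members of each list by adjusted p, a list of key genes, and the 5 interaction genes with the smallest adjusted p; Rnf145, Apoe and other list members outside this rule were chosen after their values were seen.

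Per the labels, a pool of animals is an experiment, and the number in the titles was read as the pool. After removing group means, the TBT and MEHP arrays of a pool at day 4 correlated at 0.528 (12), 0.283 (15), 0.587 (19) and 0.444 (20), so pool was fitted as a replicate block, an alternative (36 residual degrees of freedom). The others were the arrays compared alone, cyclic loess, the mean of a gene's probe sets, no filter, a stricter filter (4 arrays above the 75th percentile, 6.34), each pool left out and, added after seeing the data, each array left out for the counts between TBT and MEHP.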

Additional observations from a re-analysis of the deposited data

Results flagged for a closer look

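Among 150 groups of 4 arrays (TBT and MEHP at day 4 for 75 genes), 5 held an array whose gap to the others exceeded Dixon's 95% critical value for 4 samples, and chance marks about 1 in 20 groups. Moxd1 was low in pool 12 under TBT, at 5.68 beside 6.40 to 6.51 in the other pools. Adcy5 was low in pool 12 under TBT, at 4.02 beside 4.76 to 4.87. Msmo1 was high in pool 12 under TBT, at 8.71 beside 8.30 to 8.34. Elovl5 was low in pool 12 under MEHP, at 9.79 beside 10.02 to 10.06. Aspn was high in pool 20 under MEHP, at 7.00 beside 6.52 to 6.57. Of these 5 genes, Adcy5 and Msmo1 were called with any pool left out.

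The difference between TBT and MEHP was itself different on day 4 than on day 1 in 6 genes, by limma's interaction test with an adjusted p under 0.05. The difference grew by 1.98 for Apod and 1.70 for Lrrn3 and moved by 0.71 for Cacnb1, which is the gene that changed order. It moved by -3.37 for Tmem45b, -2.09 for Adcy5 and -1.25 for Ffar2, where MEHP was higher at day 4.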

How the results depend on the processing

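No named gene that was called reversed its direction in any of these settings. Of 50 named genes called, 11 were called in all 10 settings (6 of processing, 4 with a pool left out), 15 in the 6 of processing, and 34 lost the call with at least 1 pool left out. The replicate block gave 569 genes (318 higher, 251 lower) at day 4, 11 at day 1 and 29 for the interaction; it ended no call. The compared arrays alone gave 77 genes (63 higher, 14 lower, so 81.8% higher, against 57.1%) and 11 for the interaction. They gave 1676 and 1048 for TBT and MEHP against vehicle. In this setting the spread comes from fewer arrays and from the compared groups only. What each of these did to the counts was not tested. Leaving out 1 pool gave 51 to 414 genes (34 to 255 higher, 17 to 159 lower), 1 to 7 at day 1, 0 to 20 for the interaction, 1306 to 3044 for TBT and 1503 to 3990 for MEHP against vehicle. Leaving out 1 array, an alternative added after seeing the data, gave 118 to 382 genes (66 to 186 higher, 52 to 221 lower): 118 without TBT pool 15, 137 without MEHP pool 19, 173 without TBT pool 12 and 186 without MEHP pool 20. The share of calls that were higher ran from 40.9% (without MEHP pool 12) to 81.8%. Cyclic loess gave 298 genes, averaged probe sets 286, no filter 224 and the stricter filter 306. In 22 of the 294 genes at least 2 arrays of the lower group lay under 4.05, where the size of a difference is uncertain. With 4 arrays a group, wide 95% intervals limit what a missed threshold says.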

Other observations

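Several genes of sugar use were lower in TBT than in MEHP, in lists drawn up after the calls were seen, so their counts describe these arrays and test nothing further. Of 19 genes of glycolysis and lactate, 8 fell, 0 rose and the median was -0.41 (0.845% of all genes tested fell). They were the glucose transporter Slc2a1 (-0.86 ± 0.19, limma adjusted p 0.00851), the lactate exporter Slc16a3 (-1.24 ± 0.30, 0.0176), its relative Slc16a1 (-0.63 ± 0.17, 0.0363), the activator of phosphofructokinase Pfkfb3 (-1.07 ± 0.21, 0.00218), the enzymes Tpi1 (-0.65 ± 0.16, 0.0204), Pgam1 (-0.57 ± 0.11, 0.00182) and Ldha (-0.40 ± 0.10, 0.0231), and Pdk1, which blocks pyruvate dehydrogenase (-0.59 ± 0.16, 0.0409). Slc2a1 measured 8.39, 7.65, 7.85 and 7.90 in TBT, against 9.27, 8.81, 8.73 and 8.42 in MEHP, and the groups did not overlap. Against vehicle it was lower under TBT (-0.93 ± 0.19, adjusted p 0.000466) and stood at -0.07 ± 0.19 under MEHP (0.842). Slc16a3 and Pgam1 were likewise lower than vehicle under TBT with no call under MEHP. Pfkfb3 was higher than vehicle under both, by 0.69 ± 0.21 under TBT (0.017) and 1.76 ± 0.21 under MEHP (2.41e-08), and so was Slc16a1. Tpi1, Ldha and Pdk1 were higher than vehicle under MEHP with no call under TBT. The calls of these 8 genes were not checked with a pool left out. Of 12 glycogen genes 3 fell: Ppp1r3d and the synthases Gys1 (-0.76 ± 0.21, 0.0388) and Gys2 (-1.14 ± 0.25, 0.00844), the last with all TBT arrays near background. Of 11 enzymes of alanine, proline and serine, 5 fell: Gpt, Phgdh, Psat1, Gpt2 (-0.91 ± 0.18, 0.00272) and proline dehydrogenase, Prodh (-1.43 ± 0.31, 0.00745).

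Of the TAM receptors and their ligands, a list also drawn up after the calls were seen, 2 of 5 rose (1.13% of all genes tested were higher), which likewise tests nothing further. Axl, a receptor by which macrophages take up dying cells, measured 10.69, 10.41, 10.46 and 10.33 in TBT, against 9.39, 9.74, 9.20 and 9.27 in MEHP (1.07 ± 0.11, adjusted p 2.91e-08), and its ligand Gas6 was 0.56 ± 0.14 higher (0.0183). The receptor Mertk differed by 0.40 ± 0.15 (0.151) and passed with the pool as a block (0.0442).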
